A study of Mus musculus with 6 samples.

Results

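The cell cycle genes described here are 42 of the 28692 genes in the count tables. They are listed by name for their known roles in DNA replication and mitosis. The rule uses no measured value, but the genes were chosen with earlier results of these data known. They are followed across the immune cell classes of the mouse central nervous system. The C57BL/6 mice were used for experimental autoimmune encephalomyelitis (EAE), in which immunization turns the immune system on myelin and which serves to model multiple sclerosis. Days are counted from induction, so day 0 is the baseline before disease, and the labels do not say whether those mice had been immunized. The groups were wild type (WT) and miR-155KO (KO, lacking the microRNA miR-155 in the whole animal as far as the labels say) on days 0, 13 and 21. Each of the 6 groups drew on 5 mice and was deposited as 1 droplet library of transcript 3' ends, so animals cannot be told apart within a library. All groups shared the sort for live CD45+ cells, and brain is the labelled tissue, though the protocol names spinal cord as well.

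A dividing cell copies its DNA in S phase and parts the copies in mitosis. Replication genes (the Mcm2 to Mcm7 helicase, Pcna, the nucleotide enzymes Rrm1, Rrm2, Tyms and Tk1) are induced by E2F factors as cells enter S phase. Mitotic genes (cyclins A and B, Cdk1, Aurora and Polo kinases, centromere and spindle proteins) are transcribed later, through the B-MYB, MuvB and FOXM1 factors, and their products are destroyed as mitosis ends. In the inflamed nervous system, microglia can divide in place, T cells divide after activation, and neutrophils and monocytes descend from dividing marrow precursors and stop dividing as they mature.

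Of the 42 genes, 10 act in origin licensing and at the replication fork, 4 make nucleotides, and 7 are cyclins, Cdk1 or its Cks subunits. A further 5 are mitotic kinases or checkpoint kinases, 2 are partners of Aurkb in the chromosomal passenger complex, and 2 serve the anaphase-promoting complex. The remainder are 3 centromere genes, 7 spindle genes and 2 chromosome genes, Top2a and Mki67. All 42 were detected. The unique molecular identifiers (UMIs, 1 per captured transcript) over all libraries ran from 380 for Cdc6, which loads the helicase at origins, to 17687 for Stmn1, which takes microtubules apart.

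Promoter sequence was compared first, since the replication and mitotic genes are known to be read by different factors. RefSeq promoters (GRCm38.p6) were matched for 35 of the 42 genes, each covering 250 bases before to 50 after the transcription start. The Ube2c promoter is shown because Ube2c, the ubiquitin-conjugating enzyme of the anaphase-promoting complex, was the most abundant gene whose promoter held TTTGAA, the core of the cell cycle homology region (CHR). The Cks2 promoter is shown for CCAAT, the box bound by NF-Y. The Mcm6 promoter is shown for the E2F words TTTCCCGC, TTTGGCGC, TTTCGCGC and TTTGCCGC. Capitals mark the words on either strand, so CHR can read TTCAAA and the CCAAT box ATTGG.
Ube2c, plus strand, chr2:164769679-164769978: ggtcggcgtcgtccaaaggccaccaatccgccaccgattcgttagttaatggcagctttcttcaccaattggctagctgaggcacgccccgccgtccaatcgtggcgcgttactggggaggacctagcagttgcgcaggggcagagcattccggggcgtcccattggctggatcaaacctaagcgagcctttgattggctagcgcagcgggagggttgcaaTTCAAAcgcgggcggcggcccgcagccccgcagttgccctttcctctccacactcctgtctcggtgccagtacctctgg
Cks2, plus strand, chr13:51644982-51645281: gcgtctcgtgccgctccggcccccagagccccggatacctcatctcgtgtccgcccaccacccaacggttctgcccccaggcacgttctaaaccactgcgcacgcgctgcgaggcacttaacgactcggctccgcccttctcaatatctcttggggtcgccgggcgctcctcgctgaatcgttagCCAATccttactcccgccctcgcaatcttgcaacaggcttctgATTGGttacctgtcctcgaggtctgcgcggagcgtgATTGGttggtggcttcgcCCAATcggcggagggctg
Mcm6, minus strand, chr1:128359656-128359955: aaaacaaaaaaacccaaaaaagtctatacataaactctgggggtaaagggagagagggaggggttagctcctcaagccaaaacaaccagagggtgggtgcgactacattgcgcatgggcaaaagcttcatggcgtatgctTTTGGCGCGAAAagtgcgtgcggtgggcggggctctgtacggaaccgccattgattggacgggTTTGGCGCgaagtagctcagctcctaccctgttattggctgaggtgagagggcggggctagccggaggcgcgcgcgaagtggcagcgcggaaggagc
The CHR word of Ube2c lay 29 to 24 bases before the start. In Mcm6 the first pair of E2F words overlapped, spanning 110 to 99 bases before the start, and another lay 47 to 40 bases before it.

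The 3 words were spread unevenly over the 42 genes. CHR was found in 17 of the 23 matched genes outside replication and nucleotide synthesis (73.9%) and in 1 of the 12 matched replication and nucleotide genes (8.33%), against 20.2% of all 27025 genes of the promoter table. An E2F word was found in 1 of those 23 (4.35%) and in 6 of those 12 (50%), against 2.6% of all genes. CCAAT was common to both groups, in 29 of 35 (82.9%), against 41.1% of all genes. CHR and CCAAT stood together in 16 of the 23 mitotic and cyclin genes (69.6%), against 7.97% of all genes. Motifs were searched on both strands. A match describes these letters in this window and is not a measured binding site.

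**Figure D1:**
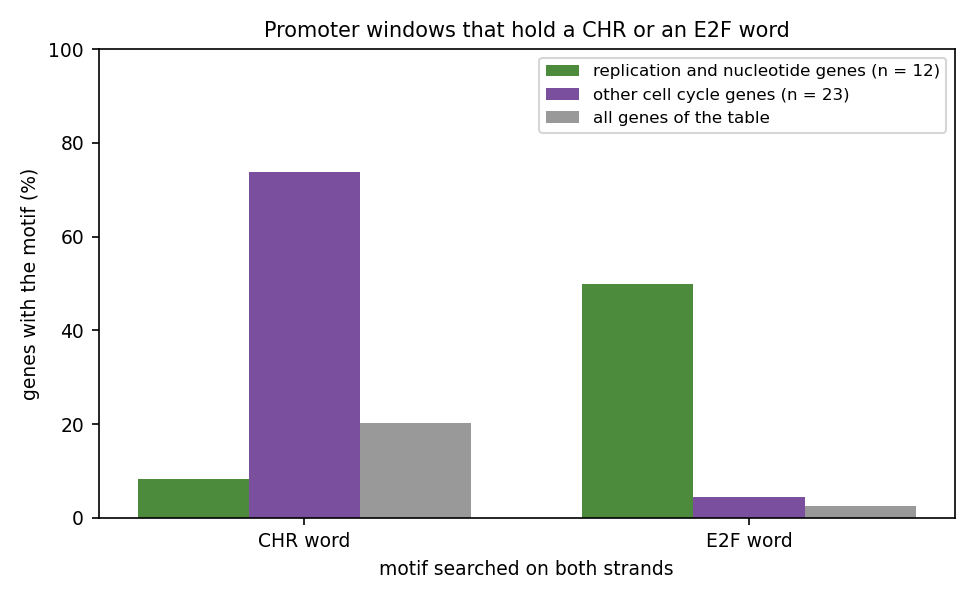
Share of genes (percent, vertical axis from 0) whose promoter window holds a CHR or an E2F word, as bars for replication and nucleotide genes, the other cell cycle genes, and all genes of the promoter table. CHR is held by 73.9% of the mitotic and cyclin genes and an E2F word by 50% of the replication genes.

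The 6 libraries held 20007 barcodes after a filter on mitochondrial UMIs, with 6321841 to 24243660 UMIs deposited per library and a median of 3021 to 4375 UMIs per barcode. Mir155hg, the host transcript of miR-155, was counted 2, 45 and 59 times in WT and 0, 0 and 1 times in KO on days 0, 13 and 21. Of the barcode sequences, 206 occurred in 2 libraries and 19595 in 1. Cells were assigned to a class when they held enough of its marker genes, and 3321 barcodes that passed the gates of several classes were kept apart. Pairs of cells caught in 1 droplet were not called, so their number here is unknown. In these pooled counts, fewer dividing cells and less message per dividing cell cannot be told apart. Day is also confounded with a title prefix that both genotypes of a day share, so day and any batch it may mark cannot be told apart.

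Dividing cells were counted as barcodes with at least 3 UMIs of Mki67 (a proliferation marker), Top2a (which untangles replicated DNA) and Birc5 (survivin, of the passenger complex) added up. By this count, 1232 of 20007 barcodes were cycling (6.16%, exact 95% interval 5.83% to 6.5%). Cycling barcodes had a median of 10644 UMIs and the others 3345, but these medians pool classes, so class and depth cannot be told apart in them. The count depends on depth, since it was 394 of 18085 (2.18%) when each barcode was thinned to 2000 UMIs. Thinning left out 1922 shallower barcodes. All intervals here cover counting error only.

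The share differed widely between classes. Cells with markers of the granulocyte-monocyte progenitor, the marrow precursor of neutrophils and monocytes, were cycling in 334 of 443 (75.4%, or 16% after thinning). They made up 27.1% of all cycling barcodes. Among the markers of this gate, Prtn3 was found in 99.1% of them, Elane in 91.4%, Ms4a3 in 80.4%, Ctsg in 72.5% and Mpo in 60.9%. Cd34 was found in 15.8% and Kit in 7.45%. The word progenitor thus names the gate here, and the stage of these cells was not tested. Neutrophil-gated cells were cycling in 166 of 2230 (7.44%, 3.09% thinned), T cells in 105 of 2415 (4.35%, 2.73%) and monocytes and macrophages in 77 of 1928 (3.99%, 1.67%). Microglia were at 93 of 6216 (1.5%, 0.922% thinned) and B cells at 14 of 1476 (0.949%). A further 30.2% of cycling barcodes passed several gates. At the cut itself, with exactly 3 UMIs of the 3 genes, lay 17 of the 93 cycling microglia, 14 of the 77 cycling monocytes and macrophages and 28 of the 334 cycling progenitors. Just below it, with 2 UMIs, lay 25, 19 and 32 barcodes of these classes.

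Within classes, the cycling share differed between subsets gated on other genes. Immature neutrophils were cycling in 164 of 1180 (13.9%, 5.27% thinned) and mature neutrophils in 1 of 372 (0.269%, 0.0068% to 1.49%). The mature neutrophil is a non-dividing cell whose share is taken as the free RNA background, though it rests on 1 barcode. The remaining neutrophils, in neither subset, were cycling in 1 of 678 (0.15%). Non-cycling barcodes had a median of 3963.5 UMIs in the immature and 2665 in the mature subset. Foxp3-positive T cells, the regulatory subset, were cycling in 33 of 220 (15.0%, 7.49% thinned), CD8 T cells in 35 of 813 (4.31%) and CD4 T cells in 17 of 474 (3.59%). Type 1 dendritic cells were cycling in 17 of 106 (16%, 5.66% thinned). Mature dendritic cells were cycling in 0 of 103, where 3 counts would be 2.91% and the exact 95% interval reaches 3.52%. Non-cycling barcodes of these dendritic subsets had medians of 7417 and 3753 UMIs. The Foxp3 subset is called from UMIs of Foxp3, so it favours deep barcodes. On day 13 it was cycling in 11 of 28 (WT) and 11 of 35 (KO). With both calls read at 2000 UMIs, an alternative chosen after seeing the data, the counts of that day were 1 of 13 in WT and 3 of 17 in KO.

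Across days, each class had its own course. Microglia were cycling in 3 of 1352 (WT) and 3 of 1222 (KO) on day 0. On day 13 they were at 45 of 942 in WT (4.78%, 3.51% to 6.34%) and 12 of 456 in KO (2.63%, 1.37% to 4.55%). On day 21 they were at 8 of 525 (1.52%) and 22 of 1719 (1.28%). The intervals of both day 13 libraries lay above the day 0 shares of 0.222% and 0.245%, and thinning kept that order, at 0.232% and 0.255% on day 0 and 2.47% and 1.54% on day 13. The day 0 shares lay below the 0.269% of mature neutrophils, so dividing microglia cannot be told from background on day 0.

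T cells were likewise highest on day 13, with 1 of 131 and 0 of 80 cycling on day 0, 33 of 388 (8.51%) and 20 of 276 (7.25%) on day 13, and 49 of 1328 (3.69%) and 2 of 212 (0.943%) on day 21. After thinning these were 0.820% and 0%, 4.55% and 2.54%, and 2.86% and 1.12%, still highest on day 13 within each genotype. Monocytes and macrophages were cycling in 6 of 81 and 5 of 41 on day 0, 5 of 479 (1.04%) and 7 of 461 (1.52%) on day 13, and 36 of 661 (5.45%) and 18 of 205 (8.78%) on day 21. After thinning, day 13 (0.628% and 0.651%) lay below day 21 (2.75% and 2.93%) in both genotypes, but on day 0 the WT share was 2.47% and the KO share 0 of 41, so day 13 was not the lowest in KO. Natural killer (NK) cells were cycling in 0 of 59, 55, 27 and 37 on days 0 and 13 and in 6 of 77 and 6 of 52 on day 21. Progenitors stayed between 70.1% and 82.1% in the 4 libraries of days 13 and 21, and no test was made of these shares since each rests on 1 library.

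**Figure D2:**
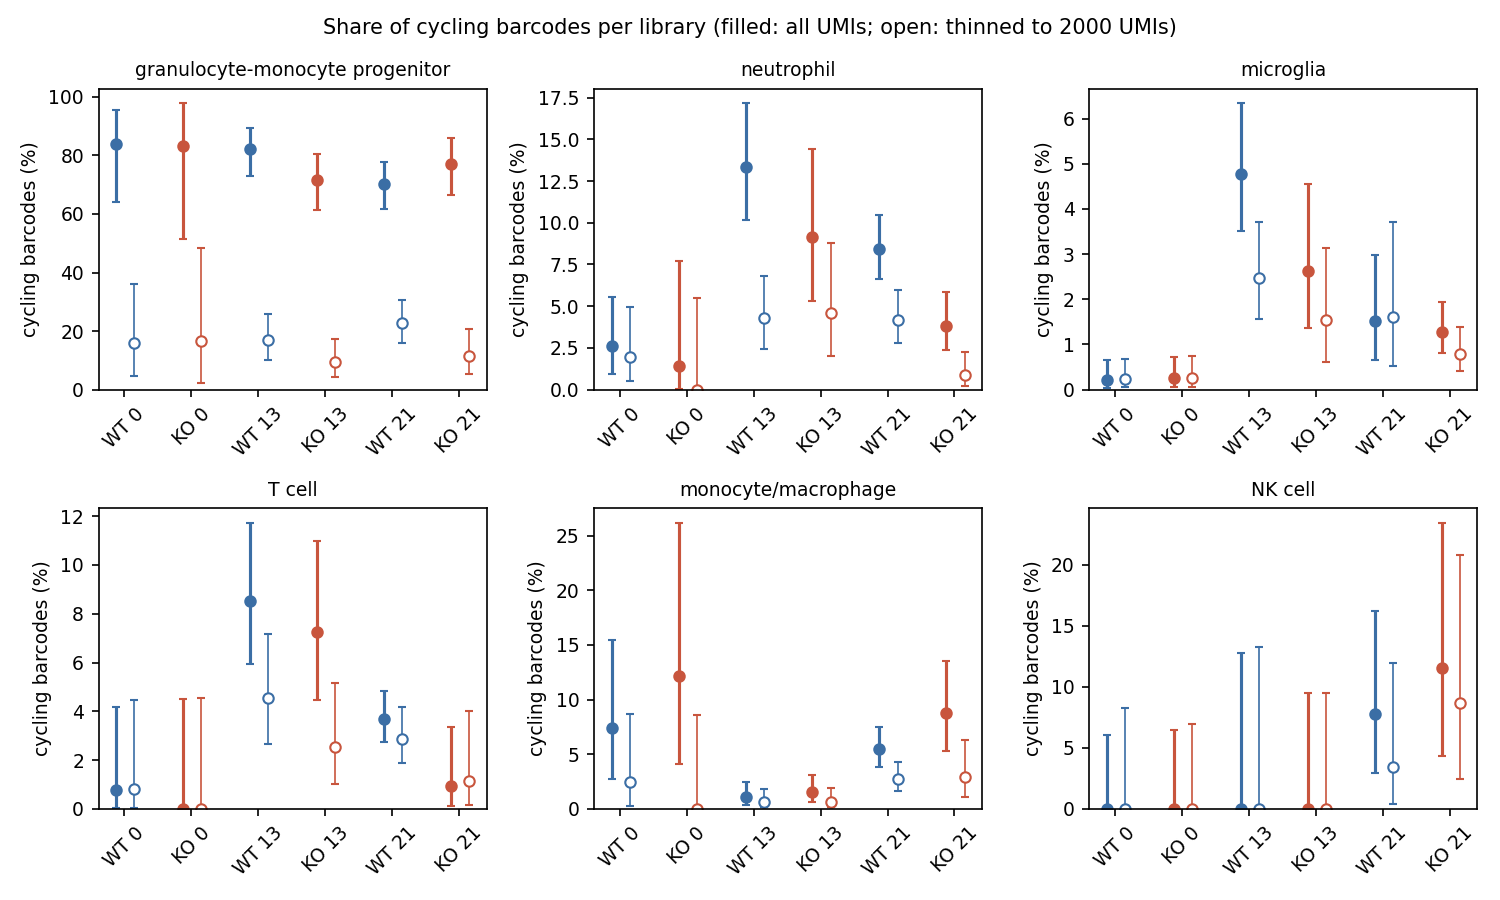
Share of barcodes that were cycling (percent, vertical axis) by class, day and genotype, with 1 filled point per library for all UMIs, 1 open point after thinning to 2000 UMIs, and exact 95% intervals for counting error. Within each genotype microglia and T cells are highest on day 13. Monocytes and macrophages are lowest there by all UMIs but not by thinned UMIs in KO, where day 0 is at 0.

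Cycling barcodes also carried the other 39 genes, which played no part in the call. After thinning, a cycling microglial barcode held a mean of 18.4 UMIs of the other 39 genes against 0.749 in the rest, with a median of 12 genes detected against 0. Stmn1 was found in 92.3% of cycling microglia and 8.85% of the others, and Cenpa, the centromeric histone, in 59.6% and 2.22%. In T cells the mean was 21.8 against 1.28 UMIs and in neutrophils 13.9 against 1.07. Progenitors differed less, at 14.2 against 9.54, and a progenitor below the cut still held a median of 7 of the 39 genes. All licensing and fork genes but Mcm7 (21.1% and 18.3%) were found less often in cycling than in other progenitors, as Mcm6 at 14.1% and 25.5%. The nucleotide genes were divided there, with Tk1 at 28.2% and 19.4% and Rrm2 at 43.7% and 45.2%. Replication and nucleotide genes were divided in microglia. Mcm3, a helicase subunit, was found in 13.5% of cycling and 6.69% of other barcodes and Pcna in 19.2% and 8.62%, but Tk1 in 32.7% and 0.644% and Rrm2 in 26.9% and 0.572%.

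The call favours late stages, since Mki67, Top2a and Birc5 are known to peak near mitosis. Within it, the UMIs of 15 replication and nucleotide genes exceeded those of 23 mitotic genes in 7.69% of cycling microglia, 9.86% of progenitors, 10% of neutrophils and 24.5% of T cells, and the differences between classes were not tested. Cks2, a Cks subunit of Cdk1, was an exception to the pattern of low levels outside cycling cells. It was found in 15.6% of non-cycling neutrophils, above Ube2c at 4.46% and Stmn1 at 7.01% there.

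The 42 genes were then summed per class and library, as counts per 1000000 UMIs of the class (CPM). Microglia were at 350.6 CPM in WT and 387.7 in KO on day 0, at 1209 and 931.3 on day 13, and at 626.0 and 514.8 on day 21. Both genotypes thus had their highest level on day 13, and the days did not overlap. Mitotic genes held most of the difference: 23 of them summed to 102.6 and 91.7 CPM on day 0 and 596.4 and 460.4 on day 13, while the 15 replication and nucleotide genes were at 187.8 and 222.0, then 269.1 and 197.9. In T cells both groups were higher on day 13, at 221.5 and 134.2 against 769.8 and 779.2 CPM for the mitotic genes and 402.0 and 234.9 against 719.2 and 694.1 for the replication and nucleotide genes. Progenitors were far above all other classes with at least 50 barcodes, at 6059, 5270, 6030 and 6356 CPM in the WT and KO libraries of day 13 and then day 21.

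**Figure D3:**
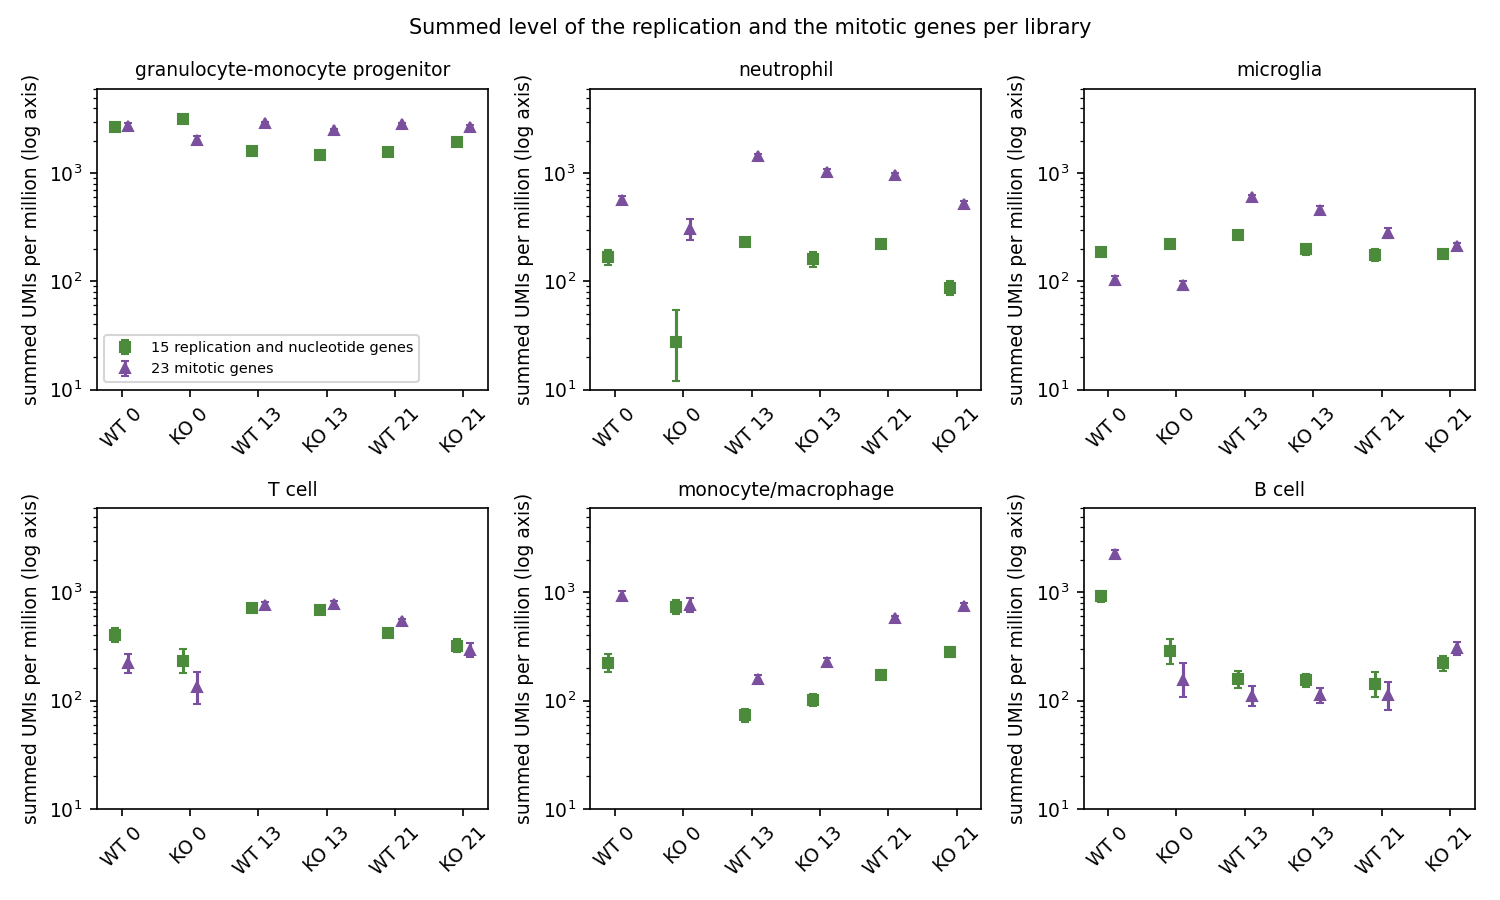
Summed level of 15 replication and nucleotide genes (green squares) and 23 mitotic genes (purple triangles) in CPM (log axis) for each library, named by genotype and day, with exact 95% Poisson intervals. In microglia the mitotic genes lie below the replication genes on day 0 (102.6 against 187.8 in WT) and above them on day 13 (596.4 against 269.1).

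Days were compared gene by gene with edgeR's quasi-likelihood test and Benjamini-Hochberg adjustment over all genes tested in a class. The 2 genotypes of a day acted as its replicates, so p-values measure the spread between these libraries, and the 3 day contrasts share libraries. Genes too low to test were left out, and a gene that passed that filter only through its high day had to differ, so the counts below describe tested genes and not all 42.

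In microglia, most of the tested genes rose from day 0 to day 13. Of 39 tested (Kif11, Cdc6 and Ccne2 were too low), 34 rose and 1 fell, where 16.5% of all genes tested rose and 13.4% fell. The median change of the 39 was 2.76 on the log2 scale. By role, all 6 tested cyclin, Cdk1 and Cks genes rose, as did all 5 mitotic and checkpoint kinases, all 3 centromere genes and all 6 tested spindle genes. Of the 9 tested licensing and fork genes, 6 rose and 1 fell, and 2 of the 4 nucleotide genes rose.

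Ube2c was at 2.8 and 1.4 CPM in WT and KO microglia on day 0, 51.4 and 46.4 on day 13, and 24.6 and 14.3 on day 21. It rose by 4.71 ± 0.28 on the log2 scale to day 13 (SE, edgeR adjusted p = 2.64e-06), with no overlap between the days. Birc5 was at 3.7 and 5.5 CPM on day 0, 48.1 and 41.8 on day 13, and 20.7 and 13.7 on day 21, a rise of 3.52 ± 0.26 to day 13 (edgeR adjusted p = 7.97e-06). Its partner in the passenger complex Cdca8 moved with it, and both had their lowest day 13 library above their highest day 21 library. Top2a was at 5.2 and 6.0, then 59.0 and 32.6, then 22.2 and 13.5 CPM, and Mki67 at 3.9 and 3.1, then 32.9 and 18.3, then 7.7 and 10.7 CPM. They rose to day 13 by 3.26 ± 0.25 and 3.11 ± 0.32 (edgeR adjusted p = 9.68e-06 and 5.58e-05). Cenpa rose by 3.08 ± 0.24, Ccnb1 (cyclin B1) by 4.21 ± 0.37 and Cdk1, the kinase that drives entry into mitosis, by 2.31 ± 0.30, with edgeR adjusted p = 9.68e-06, 2.09e-05 and 0.000266.

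Replication genes of microglia moved less and not all the same way. Rrm2, the inducible subunit of ribonucleotide reductase, was at 1.3 and 1.9 CPM on day 0, 20.1 and 10.4 on day 13, and 9.2 and 6.9 on day 21, and rose by 3.47 ± 0.41 (edgeR adjusted p = 0.000149). Mcm6 rose by 1.13 ± 0.23 (edgeR adjusted p = 0.00436). Pcna, the sliding clamp of the fork, fell from 67.3 and 72.9 CPM on day 0 to 37.9 and 33.3 on day 13 and 20.7 and 34.5 on day 21. The fall was 0.71 ± 0.18 to day 13 and 1.01 ± 0.18 to day 21 on the log2 scale (edgeR adjusted p = 0.0133 and 0.0044), and Pcna was the 1 gene of the 39 that fell in either contrast. Pcna was also detected in 8.62% of non-cycling microglia, more than Ube2c at 1.25%.

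On day 21, 22 of the 39 genes were still above day 0 in microglia and Pcna below it, where 8.93% and 4.26% of all genes were called. From day 13 to day 21, 5 genes fell and 0 rose, where 0.527% and 0.307% of all genes did. These were Ube2c (log2 change -1.38), Birc5 (-1.47), Top2a (-1.37), Cenpa (-1.21) and Cenpe (-1.65), a kinetochore motor. The count was 9 without the WT day 13 library, 3 without the KO day 13 library and 17 without the WT day 21 library, and DESeq2 called 0. The day 21 count over day 0 was 13 without the WT day 0 library.

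Markers of other classes moved with day in microglia-gated barcodes. The 10 monocyte and macrophage markers summed to 42.7 and 41.9 CPM on day 0, 228.6 and 275.6 on day 13, and 187.2 and 113.8 on day 21. The 11 neutrophil markers were all detected and summed to 737 to 1247, 1448 to 2063 and 2544 to 4129 CPM on the 3 days, so they were highest on day 21 and not on day 13. The 7 progenitor markers stayed at 155.0 to 219.6 CPM, with Kit at 0 in 3 of the 6 libraries. In cycling microglia, 5 of the 7 progenitor markers were detected (Mpo and Ms4a3 were at 0) and summed to 264.4 CPM, against 193.1 in the other microglia. Of the 10 monocyte and macrophage markers 6 were detected there (F13a1, Vcan, Arg1 and Ace were at 0), with a sum of 169.5 against 115.7 CPM. The part of the monocyte markers in the day result was not tested.

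**Figure D4:**
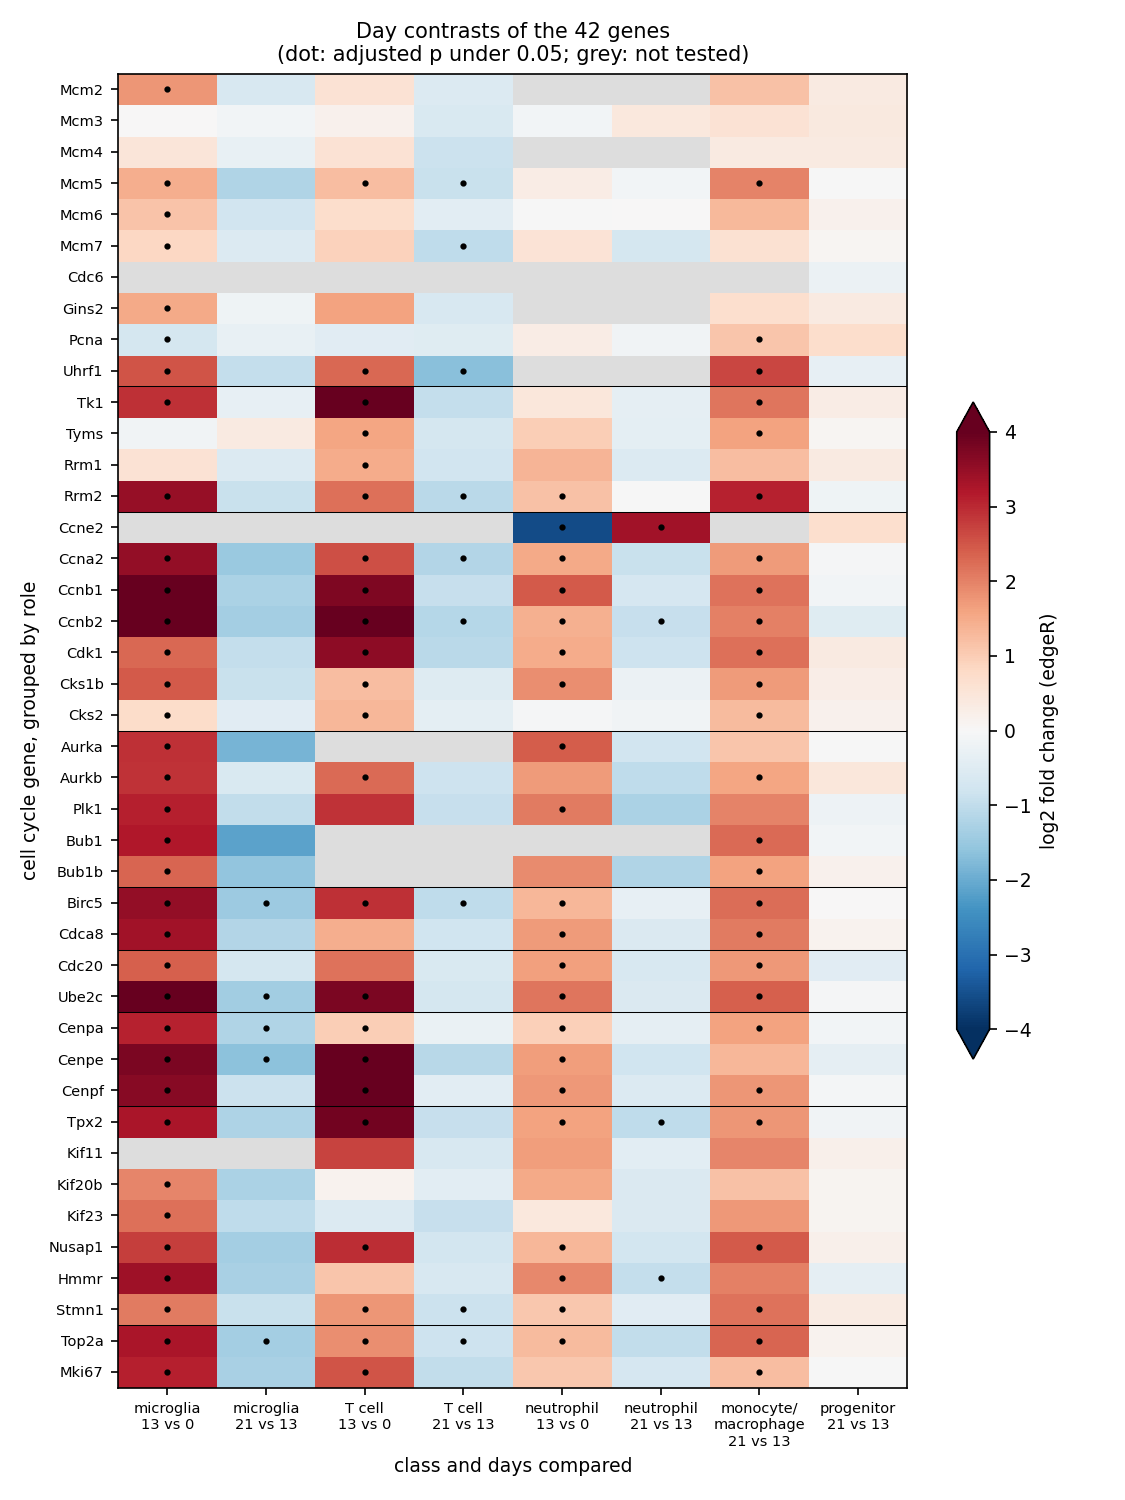
Log2 change between days (color, limited to the scale from -4 to 4) of each cell cycle gene (vertical axis, grouped by role) for a class and pair of days (horizontal axis); a dot marks an edgeR adjusted p under 0.05 and grey a gene not tested. Red fills the microglial column of day 13 against day 0 (34 of 39 higher) and the monocyte column (26 of 40 higher), and the darkest T cell tiles include 4 genes with no UMI on day 0, whose color is no measured fold.

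In T cells, 23 of 37 tested genes rose from day 0 to day 13 and 0 fell, where 8.15% and 6.93% of all genes did. All 4 nucleotide genes, all 6 tested cyclin, Cdk1 and Cks genes and all 3 centromere genes rose, but 2 of 9 licensing and fork genes, Mcm5 and Uhrf1, and 3 of 7 spindle genes. Stmn1 was at 109.6 and 26.1 CPM in WT and KO on day 0, 297.4 and 249.4 on day 13, and 190.0 and 94.8 on day 21, a rise of 1.77 ± 0.26 to day 13 (edgeR adjusted p = 2.1e-05). Rrm2 was at 29.7 and 3.7, then 110.0 and 89.3, then 50.9 and 36.5 CPM, a rise of 2.19 ± 0.36 to day 13 (edgeR adjusted p = 6.64e-05). Top2a was at 38.8 and 7.5, then 113.1 and 95.9, then 74.9 and 29.2 CPM. For all 3, the day 13 libraries lay above every other library.

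Tk1 (thymidine kinase), Ccnb2 (cyclin B2), Cenpe and Cenpf had no UMI in T cells on day 0 in either genotype, so no fold is given. They passed the filter only through the later days, so their rise was fixed in advance. The count of 23 and the tallies of nucleotide, cyclin and centromere genes include them. Tk1 was at 28.1 and 31.7 CPM on day 13 and 17.7 and 5.8 on day 21, and Ccnb2 at 55.6 and 65.1, then 27.1 and 19.0. The day 0 T cells numbered 131 and 80, and the count of 23 was 11 without the WT day 0 library, 13 without the KO day 0 library and 12 by DESeq2.

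By day 21, 9 genes were above day 0 in T cells and Pcna was below it, where 4.61% and 3.69% of all genes were called. Pcna was at 75.4 and 82.0 CPM on day 0, 67.5 and 62.6 on day 13, and 44.3 and 42.3 on day 21, and fell by 0.95 ± 0.25 from day 0 to day 21 on the log2 scale (edgeR adjusted p = 0.0156). From day 13 to day 21, 9 genes fell and 0 rose, where 0.982% and 0.757% of all genes did. Those were Mcm5, Mcm7, Uhrf1, Rrm2, Ccna2, Ccnb2, Birc5, Stmn1 and Top2a, which span S phase and mitosis. Rrm2 fell by 1.09 ± 0.20 and Birc5 by 1.03 ± 0.23 (edgeR adjusted p = 0.0041 and 0.0156). The total called on day 21 over day 0, 10, was 1 without either WT library of those days, 4 without the KO day 0 library, 17 without the KO day 21 library and 1 by DESeq2. The 9 falls became 17 without the WT day 13 library, 14 without the WT day 21 library, 5 without either KO library and 0 by DESeq2. Progenitor markers summed to 14.9 to 28.1 CPM in T cells on all days, and neutrophil markers to 462 to 1766 CPM.

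In neutrophils, 20 of 36 tested genes rose from day 0 to day 13 and 1 fell, where 8.79% and 6.41% of all genes did. Apart from Rrm2, the genes that rose were cyclin, Cdk1, Cks and mitotic genes, and 0 of 5 tested licensing and fork genes passed the test. Ube2c was at 61.2 and 6.9 CPM on day 0, 231.9 and 171.4 on day 13, and 164.5 and 81.3 on day 21, a rise of 2.15 ± 0.31 to day 13 (edgeR adjusted p = 0.000238). Birc5 was at 42.3 and 27.6, then 123.4 and 72.4, then 101.4 and 40.4 CPM, a rise of 1.32 ± 0.25 to day 13 (edgeR adjusted p = 0.00216). Cks2, at 115.0 to 206.7 CPM in all 6 libraries, had a log2 change of -0.04 to day 13 (edgeR adjusted p = 0.92). Mki67 had a log2 change of 1.07 and missed the threshold (edgeR adjusted p = 0.0538).

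Ccne2 (cyclin E2), which acts at the start of S phase, was the exception in neutrophils. It was at 10.0 and 0 CPM on day 0, 0.9 and 0 on day 13, and 7.9 and 2.6 on day 21, so the WT libraries of days 0 and 21 carried most of it. From day 13 to day 21 it rose and Ccnb2, Tpx2 (a spindle assembly factor) and Hmmr fell, 1 and 3 genes where 1.66% and 3.29% of all genes were called. On day 21, 4 genes (Ube2c, Birc5, Ccnb1 and Cks1b) were above day 0 and 0 below it, where 2.23% and 0.621% of all genes were. Progenitor markers moved with these values, at 42.3 and 34.5 CPM on day 0, 165.3 and 138.4 on day 13, and 103.6 and 67.5 on day 21, and their part was not tested. They also stood at 313.3 CPM in cycling neutrophils and 65.3 in the others. The 21 calls of day 13 over day 0 were 11 without the WT day 0 library and 10 by DESeq2. The 4 of day 21 over day 0 were 1 without the WT day 21 library, 8 without either day 13 library, 7 without the KO day 21 library and 1 by DESeq2. The 4 of day 21 over day 13 were 11 without the WT day 0 library, 10 without the KO day 0 or the WT day 13 library, 1 without the KO day 13 or the KO day 21 library, 12 without composition scaling and 0 by DESeq2.

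In monocytes and macrophages, day 0 held too few barcodes to test (41 in KO), and 26 of 40 tested genes rose from day 13 to day 21 while 0 fell, where 1.93% and 2.13% of all genes did. Stmn1 was at 29.4 and 41.0 CPM on day 13 and 145.1 and 180.7 on day 21, a rise of 2.18 ± 0.19 (edgeR adjusted p = 0.000875). Ube2c rose from 11.6 and 15.2 to 69.3 and 74.0 CPM, by 2.39 ± 0.22 (edgeR adjusted p = 0.00169), and Birc5 from 10.6 and 20.1 to 62.5 and 83.2 CPM. Rrm2 rose from 1.3 and 6.1 to 19.4 and 42 CPM, by 3.07 ± 0.36 (edgeR adjusted p = 0.00306). The 2 days did not overlap for any of these genes. Pcna rose here as well, by 1.10 (edgeR adjusted p = 0.0352). With 4 libraries, edgeR had 1 residual degree of freedom per gene in this class, as in progenitors, and borrowed the spread from other genes. DESeq2 called 9 of the cell cycle genes.

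Cycling monocytes carried neutrophil markers at 9427 CPM (790.8 to 18330 over libraries) against 2083 in the others, and progenitor markers at 521.3 against 140.8. Over whole libraries, progenitor markers in this class were at 164.0 and 171.5 CPM on day 13 and 162.0 and 147.9 on day 21. Neutrophil markers were at 2347 and 2115 CPM on day 13 and 3626 and 2105 on day 21. Summed over the class, the progenitor markers did not rise between those days, and the neutrophil markers were higher in the WT library of day 21 only. Barcodes with 3 or more progenitor markers were gated out of this class, which limits what these sums can show. The part of either marker set in the day result was not tested.

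In NK cells, 12 of 15 tested genes rose from day 0 to day 21 and 0 fell, where 8.15% and 6.20% of all genes did. Genes at or near 0 on day 0 passed the filter only through day 21, so their rise was fixed in advance. Birc5, Ube2c, Rrm2, Ccna2 and Cdca8, with fitted log2 changes of 7.18 to 7.89, are of this kind, and those values are no measured folds. Stmn1 was at 77.3 and 64.9 CPM on day 0 and 373.5 and 645.5 on day 21, a rise of 2.96 ± 0.28 (edgeR adjusted p = 3.62e-22). Birc5 had no UMI on day 0 and stood at 123.0 and 189.5 CPM on day 21. The licensing and fork genes did not follow: Mcm6 was at 77.3 and 116.8 CPM on day 0 and 54.7 and 97.3 on day 21, and Pcna at 83.8 and 84.4, then 63.8 and 122.9. These 4 libraries held 52 to 77 NK barcodes, edgeR had 1 residual degree of freedom per gene and borrowed the spread from other genes, and DESeq2 called 1 gene.

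In progenitors, 0 of the 42 genes passed the edgeR test between days 13 and 21, where 2.14% of all genes rose and 3.27% fell. At an unadjusted p under 0.05 there were 7 of the 42, where 1392 of all 7341 genes tested were, so their share was no higher than that of all genes. DESeq2 called 0. With 1 more marker gene required for the gate, edgeR called 6, and without the filter or without composition scaling 1. Mki67 was at 137.0 and 113.7 CPM on day 13 and 125.9 and 127.2 on day 21, and its log2 change was -0.01 ± 0.16 (SE).

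In B cells, 13 of 18 tested genes fell from day 0 to day 13 and 0 rose, where 6.39% and 8.32% of all genes did. The fall rests on 1 library. Stmn1 was at 623.7 CPM in WT and 24.5 in KO on day 0, and at 10.8 to 67.1 CPM in the 4 later libraries. Of the WT day 0 B cells, 9 of 123 were cycling, 3 of them among 12 with precursor B markers. The count was 0 without the WT day 0 library, 34 without the KO day 0 library, where more genes passed the filter on low counts, 21 without the KO day 13 library, 27 and 22 without the WT and KO day 21 libraries, and 1 by DESeq2. On day 21, 3 genes were below day 0 and 0 above it, where 3.13% and 4.47% of all genes were. That count was 0 without the WT day 0 or the WT day 21 library, 30 without the KO day 0 library, 14 without either day 13 library, 19 without the KO day 21 library and 0 by DESeq2. Between days 13 and 21, 0 passed the edgeR test, where 0.106% and 0.371% of all genes were called higher and lower. At an unadjusted p under 0.05 there were 2 of 18, where 358 of all 5662 genes tested were, and DESeq2 called 0.

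Other cell cycle genes were taken from lists of 99 genes in 5 groups. In microglia, 52 of 85 tested rose from day 0 to day 13 and 4 fell, with 29 of 33 further mitotic genes and 13 of 24 further replication genes rising. Foxm1, a driver of mitotic transcription, rose by 2.54. The 9 tested inhibitors and antiproliferative genes were divided, 4 rising and 4 falling. Cdkn2a (log2 change 2.59), Cdkn2c (1.65), Cdkn2d (1.02) and Cdkn1a (0.68), which block cyclin-dependent kinases, rose, while Cdkn1c (-2.20), Btg2 (-2.26), Tob1 (-1.44) and Btg1 (-0.91) fell.

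Other classes had fewer calls in these lists. In T cells, 19 of 66 tested rose from day 0 to day 13 and 5 fell, where 8.15% and 6.93% of all genes did. The share that fell was near that of all genes. Those that fell included the antiproliferative genes Btg1 (-1.25), Btg2 (-1.10) and the inhibitor Cdkn1b (-0.97). In neutrophils, 12 of 64 rose and 4 fell, where 8.79% and 6.41% of all genes did. Here too the share that fell was near that of all genes, and it included Btg2 (-1.54), Tob1 (-1.41) and Btg1 (-0.62). In NK cells, from day 0 to day 21, 10 of 23 rose and 3 fell, where 8.15% and 6.20% of all genes did, the falls including Btg2 (-1.29) and Btg1 (-0.58). In monocytes and macrophages, 15 of 69 rose from day 13 to day 21 and 0 fell, where 1.93% and 2.13% of all genes did. In B cells, 0 of 36 rose from day 0 to day 13 and 10 fell, where 8.32% and 6.39% of all genes did. Btg2 (-1.35), Btg1 (-0.62) and Tob1 (-1.78) were among them. The B cell fall of the cell cycle genes described earlier rests on the WT day 0 library. Whether the falls of Btg2, Btg1 and Tob1 rest on that library was not tested. A link between these genes and the cell cycle genes was not tested in any class.

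Genotype was tested in each class with day as a block, so that the days acted as replicates. By edgeR 0 of the 42 genes passed in any of the 7 classes, and by DESeq2 likewise 0. The shares of all genes called higher and lower in KO were 0% and 0.0383% in microglia, 0.265% and 0.212% in T cells, 0.0168% and 0% in neutrophils, 0% and 0% in monocytes and in B cells, 0.459% and 0.153% in NK cells, and 0.0409% and 0.218% in progenitors. At an unadjusted p under 0.05 there were 8 of 39 in microglia, 9 of 37 in T cells, 20 of 36 in neutrophils, 10 of 40 in monocytes, 4 of 15 in NK cells, 3 of 42 in progenitors and 3 of 18 in B cells. Among all genes tested there were 334 of 10435 in microglia, 487 of 7534 in T cells and 672 of 5959 in neutrophils. Monocytes had 243 of 8671, NK cells 192 of 2613, progenitors 721 of 7341 and B cells 212 of 5662. In progenitors the 3 genes were thus no larger a share than that of all genes. The 20 in neutrophils were all lower in KO.

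Neutrophils stood nearest to the threshold. Birc5 was lower in KO on each day, at 42.3 against 27.6 CPM on day 0, 123.4 against 72.4 on day 13 and 101.4 against 40.4 on day 21, with a log2 change of -0.82 ± 0.18 (SE, edgeR adjusted p = 0.0679). Stmn1 was lower in KO on each day as well, with a log2 change of -0.81 ± 0.21 (edgeR adjusted p = 0.156), as was Rrm2, -1.05 ± 0.26 (edgeR adjusted p = 0.136). The count that passed, 0, was 3 without the WT day 0 library, 2 without the KO day 0 library, 11 without the WT day 13 library, 10 without the KO day 13 library, 6 without composition scaling and 6 with no filter on low counts. In T cells it was 6 without either day 13 library and 4 with no filter, in microglia 1 without either day 21 library, and in B cells 4 without either day 13 library and 9 and 8 without the WT and KO day 21 libraries.

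Within a day each genotype had 1 library, so differences there have no replicate check. On day 21, immature neutrophils were cycling in 69 of 463 in WT (14.9%, 11.8% to 18.5%) and 20 of 228 in KO (8.77%, 5.44% to 13.2%), or 6.44% and 1.79% after thinning. Over all neutrophils, the KO to WT ratio of the cycling share was 0.456 on day 21 (95% interval 0.281 to 0.740), 0.684 on day 13 (0.402 to 1.16) and 0.55 on day 0 (0.067 to 4.49). After thinning it was 0.212 on day 21 and 1.07 on day 13, so the direction on day 13 did not hold at equal depth. On day 0 it was 1.04 with 1 more marker gene, and 0 of 65 KO against 4 of 205 WT barcodes were cycling after thinning. Of 30 measured genes (at least 10 CPM in 1 of the 2 libraries), 29 were at least 1.5-fold lower and 0 higher in KO neutrophils on day 21, where 20.5% of all genes were lower and 3.23% higher. The median log2 difference of these genes was -1.04, and of all genes -0.20. Ube2c stood at a KO to WT ratio of 0.494 (0.410 to 0.593) and Birc5 at 0.398 (0.306 to 0.513). Progenitor markers were lower in the same KO library, 67.5 against 103.6 CPM, and their part was not tested.

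T cells on day 21 were also lower in KO. The cycling share had a KO to WT ratio of 0.256 (0.063 to 1.04), which rests on 2 cycling KO cells. It was 0.393 after thinning and 0.501 when cycling was called from 10 or more UMIs of the other 39 genes. Of 32 measured genes, 19 were at least 1.5-fold lower and 1 higher in KO, where 8.42% and 10.1% of all genes were. Ube2c stood at a ratio of 0.220 (0.094 to 0.441) and Birc5 at 0.343 (0.174 to 0.612), while Pcna was at 0.956 (0.622 to 1.42). On day 13 the same count was 3 lower and 4 higher of 39, where 8.36% and 7.58% of all genes were, and the share ratio was 0.852 (0.500 to 1.45), or 0.558 after thinning. CD8 T cells on day 13 were cycling in 12 of 108 in WT (11.1%, 5.88% to 18.6%) and 1 of 56 in KO (1.79%), or 6.60% and 1.79% after thinning. CD4 T cells of that day went the other way by all UMIs, with 4 of 124 in WT (3.23%) and 5 of 72 in KO (6.94%). After thinning they were at 1.64% and 0%.

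In monocytes and macrophages the share ratio was 1.46 on day 13 (0.465 to 4.55) and 1.61 on day 21 (0.936 to 2.78), but 1.04 and 1.06 after thinning, with a median of 3914 UMIs in WT and 5483 in KO on day 21. By summed levels on day 21, 12 of 36 measured genes were at least 1.5-fold higher in KO and 1 lower, where 10.9% and 8.45% of all genes were. The microglial ratio was 0.551 on day 13 (0.294 to 1.03) and 0.840 on day 21 (0.376 to 1.88). On day 13 it was 0.957 when barcodes passing several gates went to their best class and 0.838 by the other 39 genes, and on day 21 it was 0.493 after thinning and 1.43 with a call at 5 or more UMIs, so its direction on day 21 depended on the call. On day 13, 13 of 34 measured genes were lower and 1 higher in KO, where 4.24% and 4.4% of all genes were. In progenitors the ratios were 0.872 (0.745 to 1.02) and 1.10 (0.937 to 1.30), or 0.562 and 0.503 after thinning, and on day 21 0.986 with 1 more marker gene. Of the 42 genes, 2 and 0 were lower on days 13 and 21, where 6.56% and 7.92% of all genes were.

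The small classes and the early day gave wider differences in both directions. In NK cells on day 21, 20 of 41 measured genes were at least 1.5-fold higher in KO and 3 lower, where 27.6% and 21.2% of all genes were. In conventional dendritic cells on day 13, 24 of 32 were lower and 1 higher, where 18.3% and 16.6% of all genes were, and 6 of 61 WT and 2 of 76 KO barcodes were cycling. In B cells, 38 of 41 were lower in KO on day 0 (24.7% of all genes) and 20 of 27 higher on day 21 (22% of all genes), so the direction turned between days. In every such count within a day, a gene near 0 in 1 library was measured only through the other, which fixed its direction. Of the 42 genes, 41 were measured in B cells on day 0, where 9 of 123 WT and 0 of 88 KO barcodes were cycling, and 14 on day 13. On day 0, 20 of 24 genes were lower in KO neutrophils (20.7% of all genes), 15 of 22 in KO T cells (19.5%) and 1 of 10 in KO microglia, with 1 higher (0.628% and 1.69% of all genes). Those day 0 values come from 70 KO neutrophils and 80 KO T cells. On day 13, 9 of 33 genes were lower and 0 higher in KO neutrophils, where 17.5% and 3.33% of all genes were, and in monocytes 5 of 14 were higher and 0 lower, where 1.84% and 3.35% were. On day 21, 9 of 22 were lower and 1 higher in KO microglia, where 6.15% and 10.4% of all genes were. Whether the genotype difference varies between days or classes was not tested.

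**Figure D5:**
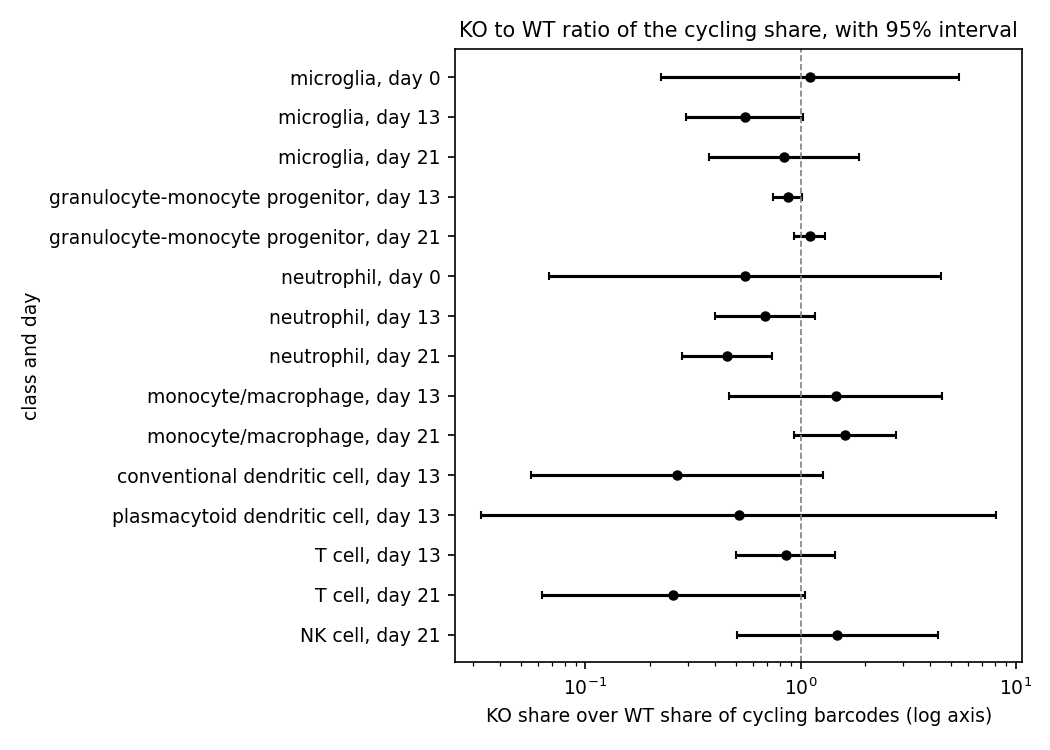
KO to WT ratio of the cycling share (log axis) by class and day, 1 library per genotype, with 95% intervals for counting error and a line at equality. Neutrophils on day 21 lie at 0.456, with an interval below 1, and all other intervals drawn include 1.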

How the data were processed

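The deposited files hold raw UMI counts per gene and barcode, whole numbers that the authors did not normalize. Cell Ranger 2.0.2 and mm10 were used, per the submitters' processing notes, and for counting options none is named there. A barcode needed 200 genes or more and no more than 10% mitochondrial UMIs, which 20007 of 20030 met. Library depths were 8566827, 6321841, 20298806, 18066205, 24243660 and 15504139 UMIs (WT and KO of days 0, 13 and 21), so precision is lowest on day 0.

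Classes were gated by the number of marker genes detected in a barcode: 4 of 8 for microglia, 3 of 8 for T, NK and B cells, 7 of 11 for neutrophils, 4 of 10 for monocytes and macrophages, 3 of 9 for conventional dendritic cells, and 3 of 7 for progenitors, which took precedence over neutrophils and monocytes. These numbers were set after seeing marker detection, without looking at cell cycle genes. Doublets were not called. The classes are rebuilt from markers and are not an annotation by the authors.

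Counts were summed per class and library where a class had at least 50 barcodes, and tested with edgeR 4.0.16 (quasi-likelihood, TMM scaling, filter on low counts, Benjamini-Hochberg over all genes tested, R 4.3.3), with day and genotype as additive terms. Since each group held 1 library, p-values measure the spread between the libraries of a day or genotype. Within a day, 10 CPM in either library, a 1.5-fold difference and a pseudocount of 1 CPM were used. Shares carry exact Clopper-Pearson 95% intervals, ratios of shares log-normal ones. The tests were tried on simulated counts. Alternatives were DESeq2 1.42.0, no filter, no TMM, a stricter gate, other cycling calls, thinning to 2000 UMIs and leaving out each library.

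The cell cycle genes and lists were chosen with earlier results of these data known. Genes given by library were Mki67, Top2a, Birc5, the gene of most UMIs in each role, and genes that passed the test. Promoters printed were those of the gene of most UMIs with each motif.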

Additional observations from a re-analysis of the deposited data

How the results depend on the processing

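When single libraries were left out, the number of cell cycle genes called by edgeR ranged as follows. In microglia it was 24 to 36 for day 13 over day 0, 13 to 24 for day 21 over day 0, 3 to 17 for day 21 over day 13 and 0 to 1 for genotype. In T cells it was 11 to 27, 1 to 17, 5 to 17 and 0 to 6. In neutrophils it was 11 to 22, 1 to 8, 1 to 11 and 0 to 11. In B cells it was 0 to 34, 0 to 30, 0 to 13 and 0 to 9. Monocytes, NK cells and progenitors had 4 libraries and were not refitted. DESeq2 called fewer: 12, 1 and 0 in T cells, 10, 1 and 0 in neutrophils and 1, 0 and 0 in B cells for the day contrasts in the same order, 0 in microglia for day 21 over day 13, 9 in monocytes and 1 in NK cells; in microglia it called 25 and 16 for days 13 and 21 over day 0. With no filter on low counts, the calls were 19 in microglia for day 21 over day 13 and 1 for genotype, 8 and 6 in neutrophils, 4 in T cells for genotype, 1 in monocytes for genotype, 19 in NK cells, 1 in progenitors between days, and 30, 20, 5 and 1 in B cells. Without TMM scaling they were 12 in neutrophils for day 21 over day 13 and 6 for genotype, 7 in B cells for day 21 over day 0 and 1 in progenitors between days. With 1 more marker gene per gate they were 2 in microglia and 3 in T cells for day 21 over day 13, 1 in T cells, 14 in neutrophils and 1 in B cells for day 21 over day 0, 8 in neutrophils for day 21 over day 13, 15 in monocytes and 6 in progenitors. Thinning to 2000 UMIs moved the KO to WT ratio of the cycling share to 0.562 and 0.503 in progenitors on days 13 and 21, so that the day 21 ratio turned from above to below 1, and to 0.212 in neutrophils on day 21. Other ratios moved within their intervals: thinned, they were 1.07 in neutrophils on day 13, 0.558 and 0.393 in T cells on days 13 and 21, 0.493 in microglia on day 21, and 1.04 and 1.06 in monocytes. Thinning moved 19 of 42 cycling shares. The causes of these differences were not tested. Among the settings tried for the cycling share, thinning moved the most shares, and a call at 5 or more UMIs moved 8. No paired analysis was possible because each group held 1 library, so no replicate number pairs samples beyond the day block that the genotype test already holds.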
